A study of Mus musculus with 60 samples.

Results

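Linker histones were followed through 7 genes, Hist1h1a, Hist1h1b, Hist1h1c, Hist1h1d, Hist1h1e, H1f0 and H1fx, in mouse embryonic stem cells (mESCs). The genes were listed by symbol and matched to identifiers through GENCODE M21, and they are 7 of the 56633 features of the count tables (genes and repeat subfamilies). All 7 passed the filter on low counts in each of the 35 comparisons. Histone H1 binds the nucleosome where DNA enters and leaves it, and it stabilises folded chromatin. The Hist1 genes are replication-dependent: they are transcribed mainly in S phase, and their mRNAs end in a conserved stem-loop, bound by SLBP, in place of a poly(A) tail. H1f0 and H1fx are replacement variants with ordinary polyadenylated mRNAs, and H1f0 is known for accumulating in cells that differentiate or stop dividing.

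The study asked how POLE4, a histone-binding subunit of DNA polymerase epsilon, and MCM2, a replicative helicase subunit that hands parental histones to the new strands, act on mESC identity. Every line used carries a degron tag on POLE4 in E14JU mESCs. The WT background is POLE4-dTAG, and the MCM2-2A background is 1 POLE4-dTAG clone that also has the MCM2-2A mutation in the histone-binding domain of MCM2, so mutation and clone cannot be told apart. Cells in serum and LIF received DMSO (Ctrl and Ctrl MCM2-2A) or dTAG, which removes tagged POLE4 (dPOLE4 and dPOLE4 MCM2-2A). T0 is 24 h of treatment, and T12, T24 and T60 are 12, 24 and 60 h of retinoic acid (RA) without LIF after T0. Separate cultures were taken at 96 h of treatment without RA. Each of the 20 groups holds 3 libraries of total RNA depleted of rRNA, which keeps mRNA without a poly(A) tail. In such bulk RNA, fewer expressing cells and less RNA per cell cannot be told apart.

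Library totals were 10461077 to 46609151 counts in the RA experiment (48 libraries) and 7126100 to 23598266 counts at 96 h (12 libraries). A Hist1 member had 1146 to 16910 counts in a library, and H1f0 or H1fx 128 to 3864. Levels are given as TMM-normalised CPM, a read count scaled to the size of its library, and the RA experiment and the 96 h cultures were scaled separately. The 7 pluripotency markers were all expressed at T0 (summed level 3000 to 3130 CPM in Ctrl and 2930 to 3270 CPM in Ctrl MCM2-2A), and all 7 fell by T60 in Ctrl while 6 of 6 RA response genes rose. Pole4 RNA does not check the treatment, because dTAG acts on the protein (52.4 ± 2.28 CPM in Ctrl and 52.4 ± 4.92 CPM in dPOLE4 at T0, SD, n = 3). A few libraries stood apart in H1 level: Ctrl T60 replicate 1 (summed H1 2900 CPM against 2300 and 2540), Ctrl MCM2-2A T0 replicate 1 (1980 against 1590 and 1570) and Ctrl 96 h replicate 2 (2110 against 1640 and 1690). Calls lost or gained without 1 of them are named. Values of genes not called rest on all libraries unless said otherwise, among them those of dPOLE4 against Ctrl at T60.

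The features of sequence that set the groups of genes apart are visible in the genes themselves. All 7 have a single exon in GENCODE (mm10). The Hist1 members lie on chromosome 13: Hist1h1a at chr13:23763666-23764406, Hist1h1b at chr13:21779883-21780625, Hist1h1c at chr13:23738808-23740367, Hist1h1d at chr13:23553262-23560686 and Hist1h1e at chr13:23620629-23622558. H1f0 is at chr15:79028450-79030504 and H1fx at chr6:87980421-87981637. The stem-loop of replication-dependent histone mRNA was found in the 3′ UTR of Hist1h1c, Hist1h1d and Hist1h1e, 25 to 41 bases after the stop codon. The annotated transcript of Hist1h1a ends 1 base before the end of the stem-loop, that of Hist1h1b ends at the stop codon, and none was found in the 1198 and 369 bases after the stop codons of H1f0 and H1fx. The annotated transcripts of Hist1h1c, Hist1h1d and Hist1h1e run on past the stem-loop, for 880, 4931 and 1209 bases after the stop codon. RNA that continues beyond the stem-loop would be counted with these genes, and its part was not tested. The sites are shown with the stem-loop in capitals, since mRNAs that end there would be missed by poly(A) selection.
Hist1h1a: ccaacGGCTCTTTTCAGAGC
Hist1h1c: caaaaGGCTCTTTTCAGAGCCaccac
Hist1h1d: caaacGGCTCTTTTCAGAGCCaccca
Hist1h1e: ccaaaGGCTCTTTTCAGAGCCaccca

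Promoters differed too. In the 150 bases before the RefSeq start (GRCm38.p6), 3 motifs that do not overlap each other here were searched on both strands: the H1 box (AAACACA), the CCAAT box (its name is its letters) and the TATA box (TATAAA). The H1 box was present in Hist1h1b, Hist1h1c, Hist1h1d and Hist1h1e (at -112 to -122) but not in Hist1h1a, the CCAAT box in all 5 Hist1 members (at -51 to -56), and the TATA box in Hist1h1a, Hist1h1b, Hist1h1d and Hist1h1e. Only exact matches counted, and the Hist1h1c window holds tatatata without an exact TATAAA. None of the 3 motifs was in the window of H1f0 or H1fx. GENCODE starts H1fx and Hist1h1d further upstream than RefSeq, so both of their windows lie wholly inside their GENCODE exons. Among all 32851 promoter windows of this length, 3.53% held the H1 box, 24.5% the CCAAT box and 7.57% the TATA box. The windows of Hist1h1a (chr13:23763518-23763667, plus strand), Hist1h1c (chr13:23738657-23738806, plus strand), Hist1h1e (chr13:23622559-23622708, minus strand) and H1f0 (chr15:79028062-79028211, plus strand) are shown with the motifs in capitals, for the Hist1 member without an H1 box, a pair with one, and the variant without any of the 3.
Hist1h1a: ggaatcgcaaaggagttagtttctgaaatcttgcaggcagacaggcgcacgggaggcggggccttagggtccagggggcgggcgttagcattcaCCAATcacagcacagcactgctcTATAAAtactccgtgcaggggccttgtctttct
Hist1h1c: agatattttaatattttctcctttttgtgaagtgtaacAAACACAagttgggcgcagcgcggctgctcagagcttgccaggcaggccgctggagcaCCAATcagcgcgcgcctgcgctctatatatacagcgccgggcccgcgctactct
Hist1h1e: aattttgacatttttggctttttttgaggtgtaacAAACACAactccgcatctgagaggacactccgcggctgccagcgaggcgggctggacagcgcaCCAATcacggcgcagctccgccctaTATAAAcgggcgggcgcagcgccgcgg
H1f0: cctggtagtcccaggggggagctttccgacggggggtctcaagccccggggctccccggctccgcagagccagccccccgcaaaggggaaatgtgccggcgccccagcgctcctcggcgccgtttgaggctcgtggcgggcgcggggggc

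The coding sequences of Hist1h1c, Hist1h1d and Hist1h1e were 80.6% to 83.9% identical to each other and shared runs of 122 to 149 bases, so reads could be split between these 3 genes and their single values are less certain. Hist1h1a shared at most 32 bases in a row with another member, and H1f0 and H1fx at most 17. Exons of other genes overlap Hist1h1e (Hist1h2be and Gm11398, both on its strand), H1f0 (the antisense gene Gm49544) and H1fx (Gm5577, antisense, and Gm47286, on its strand). The strand setting of the counting was not given in the sources used here.

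In undifferentiated Ctrl cells, H1 RNA was almost entirely from the Hist1 members. Per kilobase of RefSeq transcript, the level at T0 was 611 ± 32.7 CPM for Hist1h1a (SD, n = 3), followed by Hist1h1c (521 ± 47.7), Hist1h1d (484 ± 24.4), Hist1h1b (397 ± 24.3) and Hist1h1e (371 ± 23.2). H1fx and H1f0 lay far below, at 23.4 ± 1.93 and 15.9 ± 2.08 CPM per kilobase. The neighbours in this order Hist1h1c and Hist1h1d, and Hist1h1b and Hist1h1e, differed by less than the sum of their SDs. At T60 the order per kilobase in Ctrl was Hist1h1c (725 ± 131), Hist1h1e (704 ± 70.2), Hist1h1a (667 ± 94.9), Hist1h1d (504 ± 35.1) and Hist1h1b (475 ± 47.2), and neither the first 3 nor the last pair could be ordered beyond their spread. H1fx and H1f0, also within their spread, had come to 76.9 ± 12.7 and 68.2 ± 2.14 CPM per kilobase. The order among Hist1 members depends on the transcript length used, since GENCODE gives Hist1h1d an exon of 7425 bases and RefSeq 776.

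**Figure D1:**
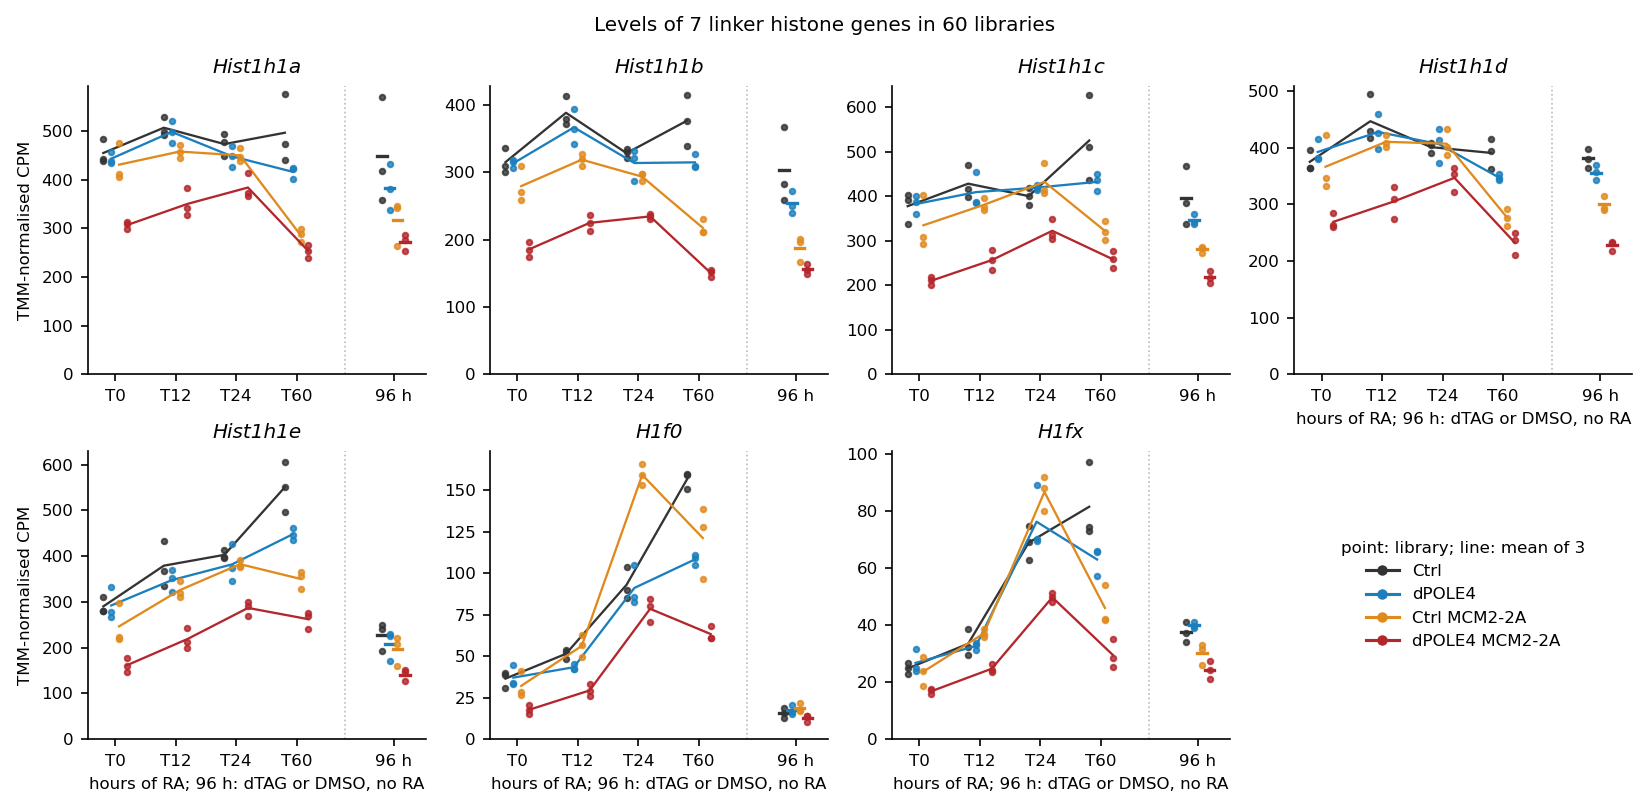
TMM-normalised CPM (vertical axis, from 0) of each of the 7 genes by time (horizontal axis), with 1 point per library and lines or bars at the mean of 3, for Ctrl, dPOLE4, Ctrl MCM2-2A and dPOLE4 MCM2-2A. H1f0 climbs from 36.5 CPM at T0 to 156 CPM at T60 in Ctrl, and dPOLE4 MCM2-2A holds the lowest mean of each gene at each time of the RA experiment.

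The replacement variants and, among the Hist1 members, Hist1h1e rose upon RA. A gene is said to have risen or fallen, or to be called, where edgeR's quasi-likelihood test gave a Benjamini-Hochberg adjusted p under 0.01 over all features and a log2 fold change beyond 0.58 in either direction. In Ctrl, none of the 7 genes passed at T12, where 7.24% of features rose (DESeq2 called none of them either, and 7 had an unadjusted p below 0.05). At T24, H1f0 and H1fx rose, beside 13.5% of features, and at T60 H1f0, H1fx and Hist1h1e rose, beside 26.9%. The fold changes at T60 were 4.24 for H1f0, 3.27 for H1fx and 1.87 for Hist1h1e.

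H1f0, the variant of differentiated cells, lay at 39.9, 38.5 and 31.0 CPM in the Ctrl libraries of T0. At T24 the same gene read 90.1, 104 and 84.9 CPM, and at T60 160, 151 and 159 CPM. Each time point stood wholly above the one before it, and the log2 change from T0 was 1.36 ± 0.092 (SE) at T24 and 2.08 ± 0.083 at T60 (adjusted p 1.7e-08 and 9.91e-12). H1fx, the second replacement variant, went from 26.8, 24.9 and 22.7 CPM at T0 to 62.8, 74.9 and 69.4 CPM at T24. At T60 it read 97.2, 73.1 and 74.6 CPM, of which only replicate 1 lay above all T24 libraries. Its log2 change from T0 was 1.48 ± 0.077 at T24 and 1.71 ± 0.10 at T60.

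Among the replication-dependent members, Hist1h1e read 311, 280 and 279 CPM at T0 and 606, 496 and 550 CPM at T60 in Ctrl (log2 change 0.91 ± 0.075, adjusted p 3.23e-08). Its groups did not overlap. Hist1h1c had an adjusted p of 0.000922 with a log2 change of 0.46 ± 0.10, below the fold cutoff. Hist1h1a, Hist1h1b and Hist1h1d had log2 changes of 0.11, 0.24 and 0.04, and those of Hist1h1a and Hist1h1d overlapped between T0 and T60. The 7 pluripotency markers fell in the same comparison (median log2 change -4.21), 4 of 4 primitive endoderm markers rose (median 4.45, summed level 12.3 to 22.3 CPM at T0 and 267 to 330 CPM at T60), and the part of a changing mixture of cells in the H1 values was not tested. Of all features, 23.7% fell and 26.9% rose from T0 to T60 in Ctrl.

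H1f0 and H1fx also rose at T24 and T60 in the other 3 conditions. In dPOLE4 cells none passed at T12 (7.18% of features rose, DESeq2 called none, and 5 had an unadjusted p below 0.05), H1f0 and H1fx rose at T24 (beside 11.8%), and H1f0, H1fx and Hist1h1e rose at T60 (beside 25.6%), with log2 changes of 1.53, 1.22 and 0.60. Hist1h1e fell short of the fold cutoff when dPOLE4 T0 replicate 2 or 3 or dPOLE4 T60 replicate 1 was left out (0.52 to 0.57). In Ctrl MCM2-2A, H1f0 and H1fx rose already at T12 (beside 5.2%) by 0.84 ± 0.14 and 0.70 ± 0.13, and H1fx did not pass without Ctrl MCM2-2A T0 replicate 3 or T12 replicate 1. At T24 H1f0, H1fx and Hist1h1e rose (beside 14.4%) by 2.34, 1.91 and 0.65, and at T60 only H1f0 and H1fx (beside 26.3%) by 1.93 and 0.99. Hist1h1e at T24 was at 0.57 without Ctrl MCM2-2A T0 replicate 2 or 3. Hist1h1a in Ctrl MCM2-2A was at -0.58 ± 0.071 at T60 with an adjusted p of 9.01e-06, at the edge of the cutoff. In dPOLE4 MCM2-2A, H1f0 rose at T12 (beside 4.3%), 4 genes rose at T24 (beside 10.9%), namely H1f0 (2.15), H1fx (1.55), Hist1h1e (0.82) and Hist1h1c (0.60), and H1f0, H1fx and Hist1h1e rose at T60 (beside 23%). Hist1h1c at T24 did not pass without dPOLE4 MCM2-2A T0 replicate 2 or T24 replicate 1 (0.58 and 0.54). The 3 time points of a condition share its T0 libraries.

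**Figure D2:**
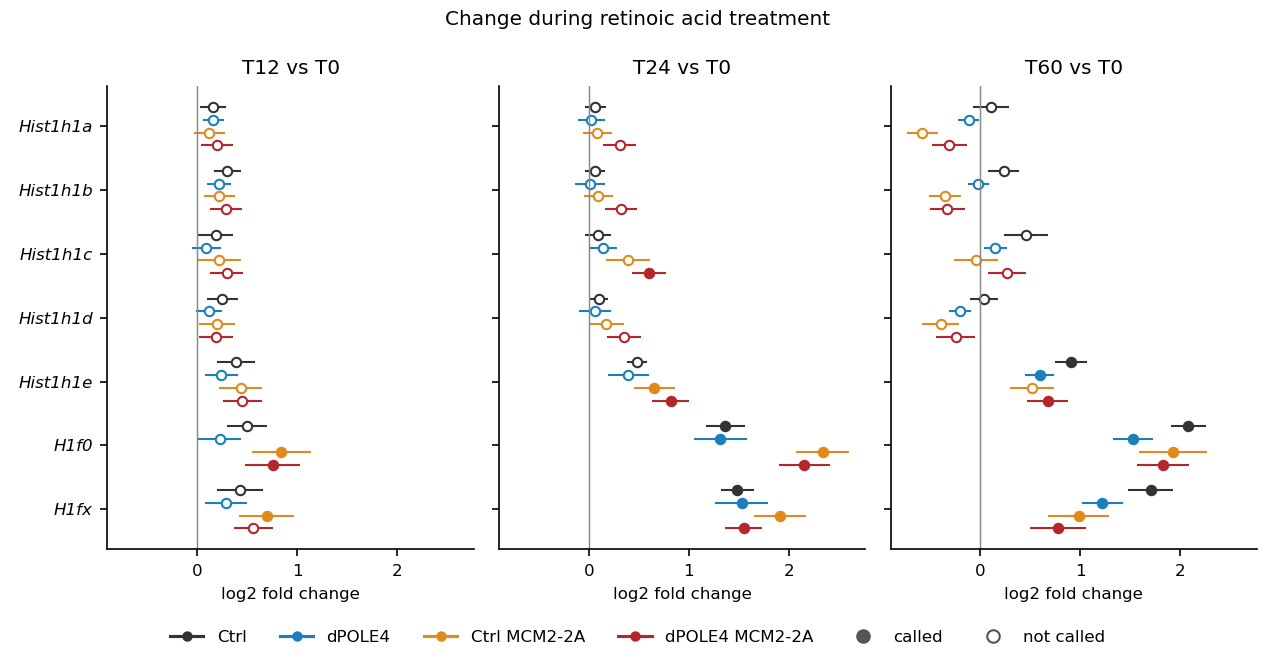
Log2 fold change from T0 (horizontal axis) with 95% intervals for each of the 7 genes in the 4 conditions, 1 panel per RA time point, filled where the gene was called. H1f0 and H1fx lie to the right in all 4 conditions at T24 and T60 (0.78 to 2.34), while Hist1h1a, Hist1h1b and Hist1h1d lie between -0.58 and 0.35 at these times.

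Whether T60 moved the genes differently between conditions was tested as a difference of changes. Against Ctrl, the change in Ctrl MCM2-2A was lower for Hist1h1a (-0.72 ± 0.12, adjusted p 0.000215), Hist1h1b (-0.62 ± 0.11, 0.000368) and H1fx (-0.75 ± 0.19, 0.00871), 3 genes of 7 beside 4.4% of features. These genes went to log2 changes of -0.58, -0.35 and 0.99 in Ctrl MCM2-2A and 0.11, 0.24 and 1.71 in Ctrl. Without Ctrl T60 replicate 1 none of the 3 passed (-0.56, -0.51 and -0.57). Hist1h1b did not pass either without Ctrl MCM2-2A T0 replicate 1, T60 replicate 1 or T60 replicate 2, and H1fx did not without Ctrl T0 replicate 2 or 3, Ctrl T60 replicate 2 or 3, Ctrl MCM2-2A T0 replicate 1 or 2 or Ctrl MCM2-2A T60 replicate 2 or 3. The change in dPOLE4 did not differ from that in Ctrl by this rule for any of the 7 (0 called, beside 0.0104% in either direction, DESeq2 0, 6 with an unadjusted p below 0.05, differences -0.21 to -0.54). Between dPOLE4 MCM2-2A and Ctrl MCM2-2A none was called (0.173% of features lower, DESeq2 0, 2 with an unadjusted p below 0.05, differences -0.18 to 0.33).

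Loss of POLE4 in the WT background gave no call of an H1 gene, before or during RA. At T0, T12 and T24, none of the 7 genes was called in dPOLE4 against Ctrl by edgeR, as was the case for 0% of features, nor by DESeq2. Unadjusted p-values below 0.05 numbered 0, 1 and 0 of 7. The log2 fold changes lay between -0.25 and 0.15, and their 95% intervals between -0.39 and 0.37. At T60 none was called (0.134% of features fell), although all 7 had an unadjusted p below 0.05 and 6 of 7 read lower without overlap, beside 10.9% of features.

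H1f0 gave the clearest value at T60. It read 160, 151 and 159 CPM in Ctrl and 111, 109 and 105 CPM in dPOLE4, so all dPOLE4 libraries were below all Ctrl libraries. The log2 fold change was -0.52 ± 0.054 with an adjusted p of 0.000217, which misses the fold cutoff of 0.58 but not that on p. The other 6 genes had log2 fold changes of -0.16 (Hist1h1d) to -0.36 (H1fx) with adjusted p-values of 0.0403 to 0.207. In this comparison 2 of 3 neural markers fell (median -0.69, summed level 287 to 314 CPM in Ctrl and 259 to 266 CPM in dPOLE4) and 1 of 3 fibroblast markers fell (median -0.50, 359 to 508 CPM against 293 to 312 CPM). Of all features, 0.134% fell. Primitive endoderm markers read 267 to 330 CPM against 216 to 260 CPM with none of 4 called, and the part of these markers in the H1 values was not tested. At 96 h without RA, the log2 fold changes were -0.25 to 0.17 with 95% intervals between -0.52 and 0.50, no gene was called (0% of features were, DESeq2 0, 1 unadjusted p below 0.05), and no gene read lower without overlap, beside 9.86% of features.

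Loss of POLE4 in the MCM2-2A background was accompanied by lower H1 RNA of both kinds, and H1f0 stood lowest. In dPOLE4 MCM2-2A against Ctrl MCM2-2A, all 7 genes read lower without overlap at T0 (beside 10.2% of features), T12 (11%), T24 (14%) and T60 (14.6%), and 5 of 7 did at 96 h (8.05%). By the call rule none fell at T0 (0.0495% of features fell), H1f0 and H1fx fell at T12 (0.188%) and T24 (0.504%), H1f0 fell at T60 (1.19%), and none fell at 96 h (0.109%). At 96 h DESeq2 also called none, and 6 of 7 had an unadjusted p below 0.05.

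At T0, the replication-dependent members read lower in dPOLE4 MCM2-2A by similar amounts. Hist1h1a read 475, 406 and 412 CPM in Ctrl MCM2-2A and 308, 298 and 314 CPM in dPOLE4 MCM2-2A. Hist1h1c read 403, 308 and 294 CPM against 218, 201 and 212 CPM. Ctrl MCM2-2A replicate 1 was the highest library for both genes, and the groups stayed apart without it too. Log2 fold changes of the 5 Hist1 members ran from -0.43 ± 0.090 (Hist1h1d) to -0.66 ± 0.11 (Hist1h1c) with adjusted p-values of 0.0149 to 0.0582, and H1f0 and H1fx are at -0.86 ± 0.16 and -0.47 ± 0.14. All 7 had an unadjusted p below 0.05. Same-numbered libraries deviated together in this comparison, and with the replicate number as a block Hist1h1c (-0.65, adjusted p 5.5e-06), Hist1h1e (-0.60, 2.24e-06) and H1f0 (-0.85, 1.15e-06) were called, beside 0.787% of all features in either direction, against 0.0715% without the block. DESeq2 called Hist1h1b, Hist1h1c, Hist1h1e and H1f0, beside 0.535%, and leaving out any 1 library gave no call. In these refits Hist1h1c ranged from -0.74 to -0.52 and H1f0 from -0.98 to -0.65.

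H1f0 fell at each RA time point. At T12 it read 56.5, 49.5 and 62.5 CPM in Ctrl MCM2-2A and 33.1, 29.1 and 25.8 CPM in dPOLE4 MCM2-2A (log2 fold change -0.94 ± 0.10, adjusted p 0.00092). At T24 it read 159, 153 and 166 CPM against 84.6, 70.5 and 80.5 CPM (-1.01 ± 0.074, 7.57e-06). At T60 it read 139, 96.7 and 128 CPM against 68.0, 61.1 and 60.9 CPM (-0.93 ± 0.12, 0.000911). In all 3 comparisons every dPOLE4 MCM2-2A library lay below every Ctrl MCM2-2A library. The T24 call held without any 1 library, the T12 call was lost without dPOLE4 MCM2-2A replicate 2 (-0.93, adjusted p 0.0129), and the T60 call was lost without Ctrl MCM2-2A replicate 3 (-0.90, 0.0106). At T60, 2 of 7 pluripotency markers also rose (summed level 415 to 532 CPM in Ctrl MCM2-2A and 560 to 744 CPM in dPOLE4 MCM2-2A) and 3 of 3 fibroblast markers fell (161 to 175 CPM against 63.4 to 80.4 CPM). Of all 18473 features tested at T60, 197 rose and 219 fell. Of neural markers 1 of 3 fell (198 to 231 CPM against 151 to 164 CPM), and none of the primitive endoderm (485 to 536 CPM against 382 to 425 CPM) or trophoblast markers (159 to 185 CPM against 197 to 269 CPM) was called. At T24, Pax6 (-0.91) among the neural and Hoxb1 (-0.84) among the RA response genes fell, beside 0.504% of features, and at T0 no marker of any list was called. The part of these markers in the H1 values was not tested.

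H1fx followed with smaller changes. At T24 it read 92.0, 80.2 and 88.3 CPM in Ctrl MCM2-2A and 50.0, 51.2 and 48.2 CPM in dPOLE4 MCM2-2A (-0.80 ± 0.069, adjusted p 2.71e-05), and this call held without any 1 library. At T12 it read 37.0, 35.8 and 38.6 CPM against 24.4, 26.4 and 23.4 CPM (-0.59 ± 0.073, 0.00195). The groups were apart at both times, but the T12 change sits at the cutoff and was lost when any library other than Ctrl MCM2-2A replicate 2 was left out (-0.55 to -0.63, adjusted p 0.00266 to 0.0181). At T60 its value was -0.64 ± 0.13 with an adjusted p of 0.012.

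The Hist1 members stayed below the fold cutoff at the RA time points while several passed on p. At T12 all 5 had adjusted p-values of 0.000983 to 0.00913 with log2 fold changes of -0.39 (Hist1h1a) to -0.58 (Hist1h1e). At T24 the range was -0.22 (Hist1h1a) to -0.42 (Hist1h1c), and at T60 -0.18 (Hist1h1a) to -0.53 (Hist1h1b). Hist1h1b at T60 read 211, 211 and 231 CPM in Ctrl MCM2-2A and 152, 145 and 155 CPM in dPOLE4 MCM2-2A (adjusted p 0.000911). At 96 h, Hist1h1d read 291, 315 and 294 CPM against 233, 218 and 232 CPM (-0.39 ± 0.070, adjusted p 0.0308), the smallest adjusted p among the 7 genes at that time.

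**Figure D3:**
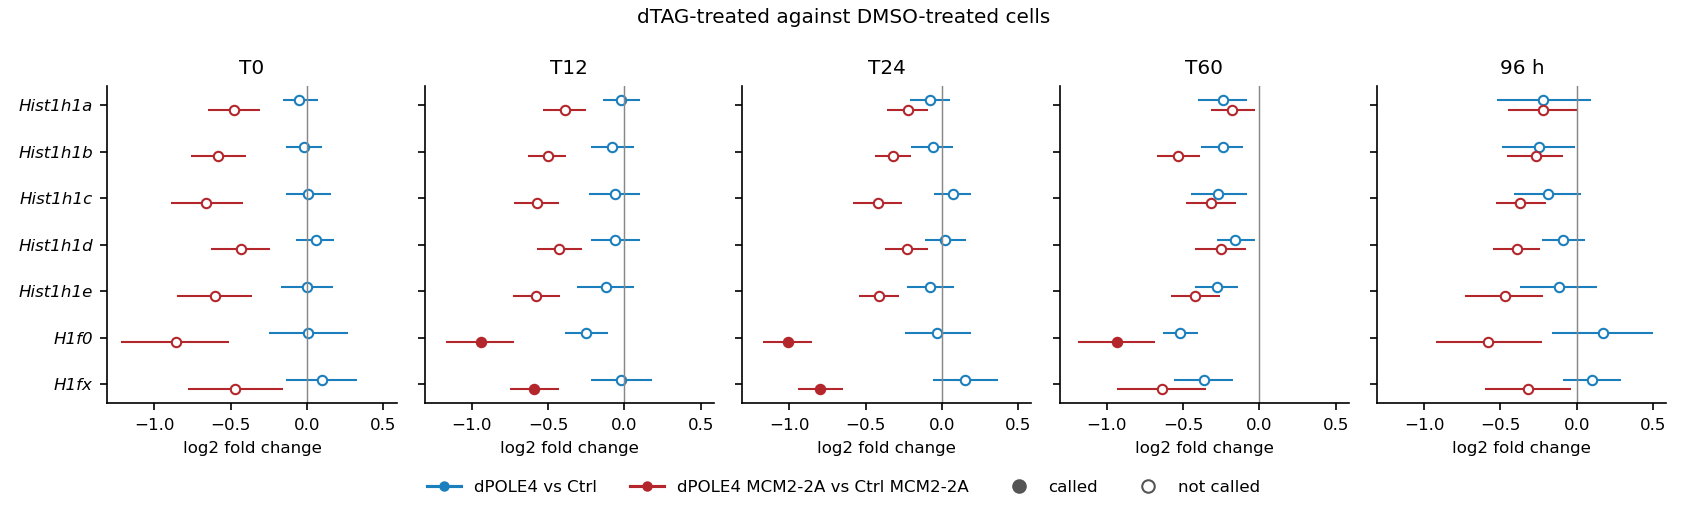
Log2 fold change of dTAG against DMSO (horizontal axis) with 95% intervals for each of the 7 genes in WT (blue) and MCM2-2A (red) cells, 1 panel per time, filled where the gene was called. In the MCM2-2A background all points lie left of 0, with H1f0 at -0.58 to -1.01, while in the WT background those of T0, T12 and T24 lie between -0.25 and 0.15.

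The difference of the effect between backgrounds was tested directly. At T24 it was -1.0 ± 0.14 for H1f0 and -0.96 ± 0.13 for H1fx (adjusted p 0.00724 each), and these were 2 of only 7 features of 19961 (0.0351%) with a lower effect in MCM2-2A by the call rule. Both remained called with the replicate block, with DESeq2 and without the filter. Both were lost when Ctrl replicate 1 or 3 or any Ctrl MCM2-2A or dPOLE4 MCM2-2A replicate was left out, with adjusted p-values of 0.0113 to 0.0371 and log2 differences of -0.89 to -1.05. For the Hist1 members the T24 difference was -0.16 (Hist1h1a) to -0.49 (Hist1h1c). None of the 7 was called at T0 (0.00526% of features lower), T12 (0.0159%), T60 (0.0685%) or 96 h (0%), where 7, 7, 2 and 3 had an unadjusted p below 0.05. DESeq2 called 1, 1, 0 and 0 of them at these times, and the replicate block 3 at T0 (H1f0, Hist1h1c and Hist1h1e) and none at the others. At T0, DESeq2 called 0.103% of all features and the block 0.0684%, and at T12 DESeq2 called 0.151%. The differences at T0 were -0.43 (Hist1h1a) to -0.87 (H1f0). At T60, where dPOLE4 was also lower in the WT background, they were -0.41 (H1f0) to 0.07 (Hist1h1a).

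Cells of the MCM2-2A clone treated with DMSO had no H1 gene called against Ctrl until T12, more H1f0 at T24, and less of most Hist1 members and H1fx at T60. None of the 7 genes was called at T0 (9.06% of features fell, DESeq2 0, 2 with an unadjusted p below 0.05) or T12 (7.62%, DESeq2 0, 4 with an unadjusted p below 0.05). At T24 H1f0 rose, beside 9.71% of features: it read 159, 153 and 166 CPM in Ctrl MCM2-2A and 90.1, 104 and 84.9 CPM in Ctrl, without overlap (0.80 ± 0.066, adjusted p 4.44e-08). H1fx was at 0.35 ± 0.067 in the same comparison (adjusted p 0.000399). This comparison and that of dPOLE4 MCM2-2A share the Ctrl MCM2-2A libraries, and the mean H1f0 level at T24 was 93.1 CPM in Ctrl and 78.5 CPM in dPOLE4 MCM2-2A.

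At T60, 5 of 7 genes fell in Ctrl MCM2-2A against Ctrl, beside 7.93% of features, and all 7 read lower without overlap, beside 26.8%. Hist1h1a read 576, 441 and 473 CPM in Ctrl and 298, 271 and 289 CPM in Ctrl MCM2-2A (-0.79 ± 0.084, adjusted p 2.89e-06). H1fx read 97.2, 73.1 and 74.6 CPM against 54.1, 41.8 and 42.3 CPM (-0.82 ± 0.11, 3.28e-05). In both genes Ctrl replicate 1 was the highest library, and the change without it was -0.67 and -0.68. Hist1h1b (-0.78), Hist1h1c (-0.69) and Hist1h1e (-0.64) also fell, the last 2 to values under the cutoff without Ctrl replicate 1 (-0.56 and -0.58). Hist1h1d (-0.49) and H1f0 (-0.36) had adjusted p-values of 2.97e-05 and 0.0084 below the fold cutoff. In this comparison 6 of 7 pluripotency markers rose (median 1.26, summed level 182 to 210 CPM in Ctrl and 415 to 532 CPM in Ctrl MCM2-2A, with none at 0), 3 of 4 primitive endoderm markers rose (267 to 330 CPM against 485 to 536 CPM), and both tested trophoblast markers rose (38.8 to 51.7 CPM against 159 to 185 CPM over the 3 listed). Of all 18056 features tested here, 1620 rose. Of fibroblast markers 3 of 3 fell (359 to 508 CPM against 161 to 175 CPM) and of neural markers 2 of 3 (287 to 314 CPM against 198 to 231 CPM). The part of these markers in the H1 values was not tested.

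At 96 h, Hist1h1b fell, beside 6.47% of features: it read 259, 367 and 283 CPM in Ctrl and 167, 201 and 197 CPM in Ctrl MCM2-2A (-0.67 ± 0.12, adjusted p 0.000798). The groups were apart, but without Ctrl replicate 2, the high library, the change was -0.51. Hist1h1c and Hist1h1d were at -0.48 and -0.33 (adjusted p 0.00319 and 0.00431), and H1f0 at 0.28.

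H1f0 lies on chromosome 15, whose genes read higher in this clone. Against Ctrl, the protein-coding genes within 2 Mb of H1f0 had median log2 fold changes of 0.72 at T0, 0.64 at T12, 0.65 at T24 and 0.57 at T60, and the medians of chromosome 15 were 0.56, 0.51, 0.52 and 0.47. H1f0 itself was at -0.21, 0.13, 0.80 and -0.36, so it lay above its neighbours' median only at T24. At 96 h H1f0 was at 0.28 beside a neighbour median of 0.64. For the dTAG effect in this clone the neighbours' median was between -0.04 and 0.02 at all 5 times. The neighbours of H1fx on chromosome 6 had medians of -0.09 to 0.03 in Ctrl MCM2-2A against Ctrl. At T60 their quartiles were -0.31 and 0.07, and 9.76% of them lay below H1fx (-0.82). On chromosome 13, non-histone genes within 2 Mb of Hist1h1a, Hist1h1c, Hist1h1d and Hist1h1e had a median of -0.20 at 96 h, with 12 of 19 lower. At T60 their median was 0.04. The neighbours of Hist1h1b had medians of -0.02 at 96 h and -0.01 at T60. The part of the chromosomes in the H1 values was not tested.

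The makeup of H1 RNA differed between groups. H1f0 and H1fx together were 3.26% ± 0.208 of the summed CPM of the 7 genes in Ctrl at T0 (SD, n = 3) and 9.27% ± 0.435 at T60. These are shares of reads, not divided by transcript length. RefSeq gives H1f0 and H1fx 2293 and 1062 bases and the Hist1 members 725 to 794, so shares per kilobase would be lower. In Ctrl MCM2-2A the share was 3.23% ± 0.328 at T0, 11.1% ± 0.54 at T24 and 10.3% ± 1.13 at T60. In dPOLE4 MCM2-2A it was 7.54% ± 0.309 at T24, near the 7.49% ± 0.796 of Ctrl. At 96 h without RA the share was 2.97% to 3.70% in the 4 conditions, and H1f0 alone 0.868% in Ctrl. Summed H1 RNA at T0 was 2000, 1850 and 1770 CPM in Ctrl and 1210, 1130 and 1160 CPM in dPOLE4 MCM2-2A, at T60 2900, 2300 and 2540 CPM against 1290, 1260 and 1200 CPM. No library of dPOLE4 MCM2-2A reached the range of Ctrl at either time. At T60 neither did any library of dPOLE4 (2160, 2130 and 2100 CPM) or Ctrl MCM2-2A (1700, 1510 and 1650 CPM). At T0 Ctrl MCM2-2A was at 1980, 1590 and 1570 CPM.

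**Figure D4:**
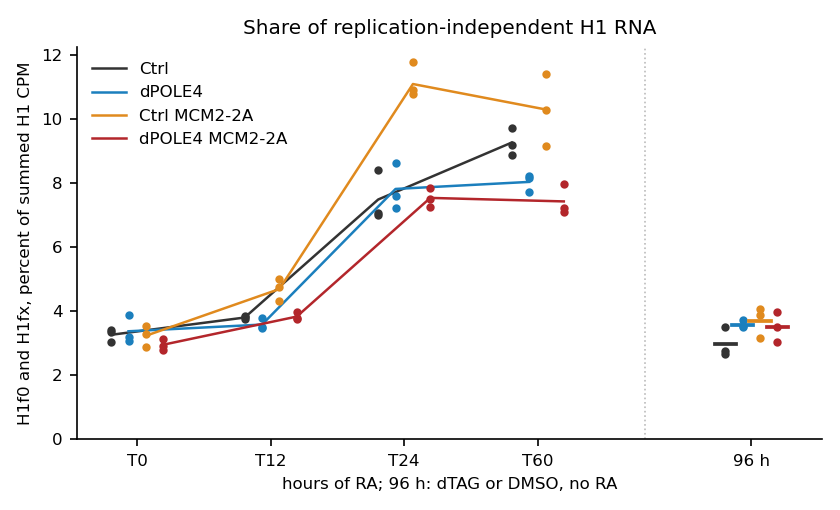
Share of H1f0 and H1fx in the summed CPM of the 7 genes (percent, not divided by transcript length, vertical axis, from 0) by time, with 1 point per library and lines or bars at the mean of 3. The share in Ctrl MCM2-2A at T24 (11.1%) lies above the other 3 conditions, which are at 7.49% to 7.82%.

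Core histone genes had medians of the same sign as the linker histones in the comparisons below. This list was chosen with earlier results of these data known. In dPOLE4 MCM2-2A against Ctrl MCM2-2A, 61 replication-dependent core histone genes were followed. Their median log2 fold change was -0.53 at T0, -0.38 at T12, -0.28 at T24 and -0.36 at T60. Over the 7 H1 genes it was -0.58, -0.57, -0.41 and -0.42. At T0, 3 of the 61 fell, beside 0.0495% of features, and 46 read lower without overlap, beside 10.2%. The median over all features was between 0 and 0.01. In Ctrl MCM2-2A against Ctrl at T60, 24 core histone genes fell, beside 7.93% of features (median -0.51, and -0.69 for the H1 genes). In dPOLE4 against Ctrl at T60 the median was -0.18, beside -0.27 for the H1 genes, and none fell, where 0.134% of features did. Among RA changes, the core histone median at T60 in Ctrl was 0.16, beside 0.46 over the 7 H1 genes. Of the core histone genes 9 rose and 1 fell, where 26.9% of features rose and 23.7% fell.

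S phase and E2F genes mark cells in or near S phase. In dPOLE4 MCM2-2A against Ctrl MCM2-2A, 0 of 18 passed by edgeR at any time, with medians of -0.01 at T0, 0 at T12, 0.10 at T24, 0.14 at T60 and 0.03 at 96 h. From T0 to T60, where 23.7% of features fell in Ctrl, 22.5% in dPOLE4, 21.2% in Ctrl MCM2-2A and 19.3% in dPOLE4 MCM2-2A, 7 of 18 fell in Ctrl (median -0.49), 10 in dPOLE4, 12 in Ctrl MCM2-2A (median -0.84) and 11 in dPOLE4 MCM2-2A. Their summed level at T0 was 3570 to 3730 CPM in Ctrl, 4440 to 4920 CPM in Ctrl MCM2-2A and 4340 to 4810 CPM in dPOLE4 MCM2-2A. At T60 it was 2310 to 2460, 2430 to 2490 and 2690 to 2700 CPM in the same order. The 16 genes for transcription and processing of histone mRNA, among them Npat, Slbp and Lsm11, had 0 called in either direction in each dPOLE4 comparison. In Ctrl MCM2-2A against Ctrl, 1 of the 16 fell at each of the 5 times, Lsm11, a subunit of the U7 snRNP (-0.77 to -1.17), and 1 rose at T0, T12 and T24, Zfp473 (0.62 to 0.68), with list medians of -0.05 to 0.03. Of all features 9.06%, 7.62%, 7.93% and 6.47% fell at T0, T12, T60 and 96 h, and 1421 of 18708 at T24. Those that rose were 1767 of 17972 at T0, 1233 of 17799 at T12 and 9.71% at T24. Of the 4 linker histone chaperones Nasp, Nap1l1, Set and Ptma, 2 fell from T0 to T60 in Ctrl, 3 in dPOLE4 and 4 in each MCM2-2A condition, where Set had -1.06 and -1.08. Of 5 cell cycle exit genes, 3 rose from T0 to T60 in each of the 4 conditions, where 23% to 26.9% of features rose.

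**Figure D5:**
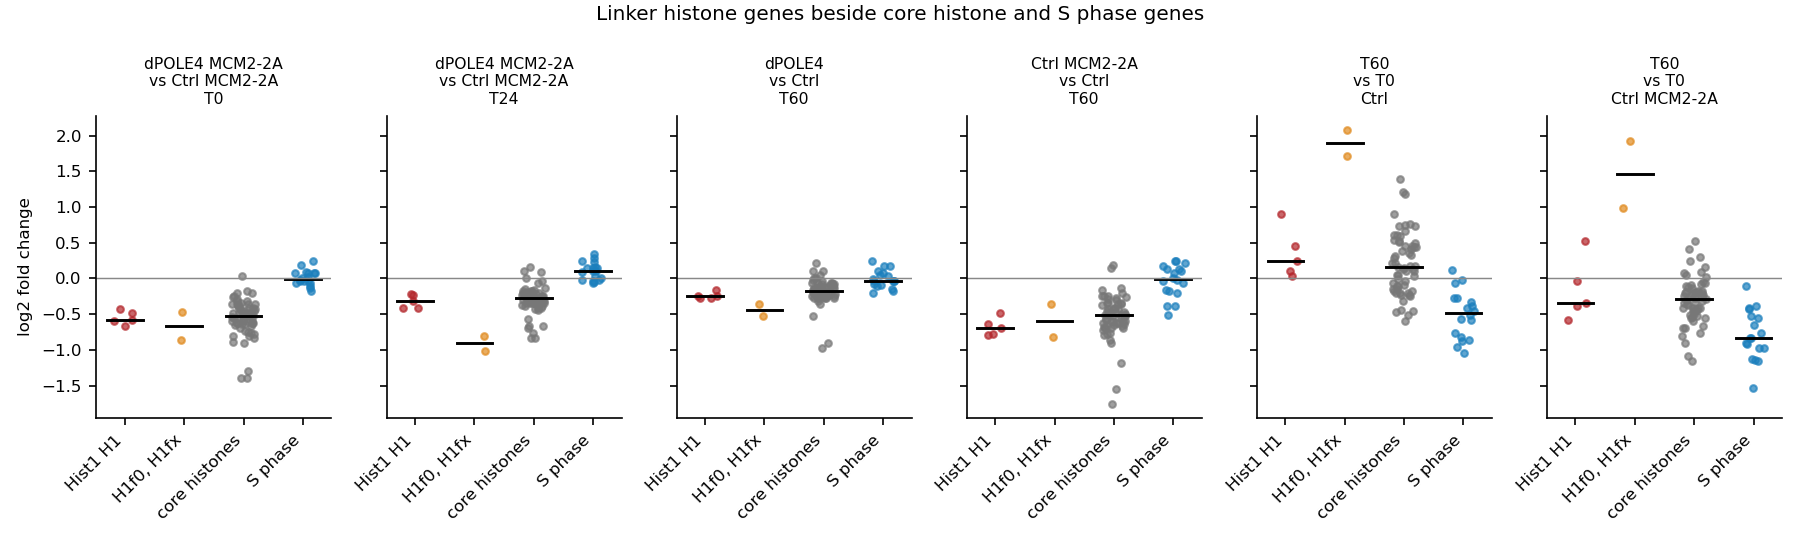
Log2 fold changes (vertical axis) of the 5 Hist1 H1 genes, H1f0 and H1fx, the core histone genes and the S phase and E2F genes in 6 comparisons, with 1 point per gene and a line at the median. In dPOLE4 MCM2-2A at T0 the Hist1 H1 and core histone medians are -0.58 and -0.53 and the S phase median is -0.01, while from T0 to T60 H1f0 and H1fx stand apart from all other groups.

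The genes most like each member over the 16 group means of the RA experiment fell into separate kinds, among 11607 genes with at least 5 CPM. Pearson's r of log2 CPM, given as a description of group means that share libraries and scaling, was highest for Hist1h1a with Hist1h3d (0.984), for Hist1h1b with Hist2h2bb (0.975), for Hist1h1c with Hist1h3i (0.963) and for Hist1h1d with Hist1h2ag (0.982). The 3 most like genes of these 4 members were all histone genes, and Hist1h1a and Hist1h1d were among each other's (0.977). For Hist1h1e they were Tro (0.955), Trim17 (0.954) and Hist3h2a (0.953). For H1f0 they were Klc2 (0.967), Cpt2 (0.964) and Map3k4 (0.961), and for H1fx Mettl9 (0.963), Sbf2 (0.954) and Klc2 (0.943), none of them a histone gene.

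Other H1 genes were low beside the 5 Hist1 members followed here. Hist1h1t, the testis H1, read 6.91, 8.09 and 6.82 CPM in Ctrl at T0, 17.9, 17.1 and 18.8 CPM at T12, and 7.24, 5.66 and 5.08 CPM at T60. Per kilobase of RefSeq transcript it was at 9.9, 24.4 and 8.16 CPM at these times in Ctrl. H1f0 was at 15.9, 22.4 and 68.2 CPM per kilobase, so at T12 Hist1h1t was at a level like that of H1f0. In dPOLE4 MCM2-2A it read 2.22, 0.862 and 2.09 CPM at T0, below all Ctrl MCM2-2A libraries (6.69, 5.28 and 6.12 CPM), and 4.39, 3.48 and 3.47 CPM at T12, against 13, 10.1 and 10.6 CPM. The germline genes H1foo, H1fnt and Hils1 were at most 0.475 CPM in any library.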

How the data were processed

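RNA counts of 60 libraries were used. The authors trimmed reads with cutadapt 4.2, aligned them to mm10 with STAR and counted genes and repeat subfamilies with TEcount, and deposited the raw counts per feature, neither normalised nor pooled. The software was R 4.3.3, with edgeR 4.0.16 for the main test (limma 3.58.1 loaded beneath it) and DESeq2 1.42.0, the study's tool, as an alternative at the study's thresholds. For each comparison, its libraries were filtered with filterByExpr (minimum count 10), TMM-scaled, then fitted by edgeR (quasi-likelihood F test) with Benjamini-Hochberg adjustment over all features tested. Intervals cover 95%. The labels number replicates within groups, the study calls them biological replicates, and p-values measure the spread among these libraries. No libraries were identical. Same-numbered libraries correlated above 0.1 in all 3 pairs in 5 of 27 comparisons. These were dTAG at T0 and 96 h in both backgrounds and Ctrl MCM2-2A against Ctrl at 96 h. The main test did not pair libraries in any comparison, and the replicate block was run only as an alternative. Named genes are the 7 members, the 3 genes most like each, other H1 genes and the extremes of gene lists. Members and lists were chosen with earlier results of these data known. Alternatives were DESeq2, its size factors, no filter, the replicate block, all groups in 1 fit, no fold cutoff and each library left out. The test was tried on simulated data.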

Additional observations from a re-analysis of the deposited data

Results flagged for a closer look

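The effect of POLE4 loss at T24 differed between backgrounds, by a test of the difference, for H1f0 (-1.0, adjusted p 0.00724) and H1fx (-0.96, adjusted p 0.00724), with a lower effect in the MCM2-2A background. Both calls were lost in 8 of 12 refits that each left out a library. The change from T0 to T60 differed between Ctrl MCM2-2A and Ctrl for Hist1h1a (-0.72, adjusted p 0.000215), Hist1h1b (-0.62, adjusted p 0.000368) and H1fx (-0.75, adjusted p 0.00871), with a lower change in Ctrl MCM2-2A. Without Ctrl T60 replicate 1 none of the 3 was called (-0.56, -0.51 and -0.57), and H1fx was lost in 9 of 12 such refits. These are edgeR quasi-likelihood tests with Benjamini-Hochberg adjustment over all features.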

How the results depend on the processing

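No call of an H1 gene changed direction under any alternative. The dTAG effect in the MCM2-2A background depended most on the settings. At T0, 0 genes were called, but 4 with DESeq2, without the filter or with all groups in 1 fit, and 3 with the replicate block. The main test called 0.0715% of all features there, in either direction. The share was 0.535% with DESeq2, 0.373% without the filter, 0.591% in 1 fit and 0.787% with the block. At T12, 2 were called, but 1 without the filter, 0 with the replicate block, whose numbers did not pair the samples there, and 7 without the fold cutoff. Of all features at T12, 0.404% were called in the main test, 0.707% without the filter and 0.0719% with the block. At T60, 1 was called, but 2 with DESeq2, without the filter, with the block or with all groups in 1 fit, and 3 without the fold cutoff. The difference between backgrounds at T0 gave 0 calls, but 1 with DESeq2, 3 without the filter and 3 with the block, and at T12 0, but 1 with DESeq2 or without the filter. Of all features, 0.00526% were called at T0 in the main test, 0.103% with DESeq2, 0.126% without the filter and 0.0684% with the block. At T12 the share was 0.0159% in the main test and 0.151% with DESeq2 or without the filter. The block moved no other count by more than 1.5 times.

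Without the fold cutoff, counts rose to 1 for dPOLE4 at T60, to 5 for dPOLE4 MCM2-2A at T24, to 1, 2 and 3 for Ctrl MCM2-2A against Ctrl at T12, T24 and 96 h, to 4 and 5 for T12 and T60 against T0 in Ctrl, to 1 for T12 in dPOLE4, to 6 for T60 in Ctrl MCM2-2A and to 3, 7 and 5 for T12, T24 and T60 in dPOLE4 MCM2-2A. The share of all features that passed on p alone was not counted. The counts without the fold cutoff, here and above, therefore have no background beside them and say nothing particular to H1 genes. With each library left out in turn, counts ranged from 0 to 3 (dPOLE4 MCM2-2A at T12), 0 to 2 (at T60), 3 to 5 and 0 to 2 (Ctrl MCM2-2A against Ctrl at T60 and 96 h), 2 to 3 (T60 in dPOLE4, T24 and T60 in Ctrl MCM2-2A), 1 to 2 (T12 in both MCM2-2A conditions), 3 to 4 (T24 in dPOLE4 MCM2-2A), 0 to 2 (the difference between backgrounds at T24) and 0 to 3 (the difference of the T60 change between Ctrl MCM2-2A and Ctrl). Calls gained in this way were, for dPOLE4 MCM2-2A at T12, Hist1h1c (without Ctrl MCM2-2A replicate 3 or dPOLE4 MCM2-2A replicate 1) and Hist1h1e (without Ctrl MCM2-2A replicate 2 or dPOLE4 MCM2-2A replicate 1), at T60 H1fx (without dPOLE4 MCM2-2A replicate 1), and for Ctrl MCM2-2A against Ctrl at 96 h Hist1h1a and Hist1h1c (without Ctrl replicate 1 and 3). In Ctrl MCM2-2A from T0 to T60 they were Hist1h1a (without T0 replicate 2 or 3) and Hist1h1e (without T0 replicate 1), in dPOLE4 MCM2-2A from T0 to T12 H1fx (without T0 or T12 replicate 3), and in the difference of the T60 change Hist1h1c (without Ctrl T60 replicate 2). The cause of these differences was not tested. Depth limited H1f0 and H1fx most, with 128 counts in the lowest library.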
